A study of Mus musculus with 6 samples.

Results

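The genes described here are 37 genes that make and assemble ribosomes in the nucleolus, chosen by name, of 18193 genes measured. They were Ncl, Npm1, Gnl3, Nolc1, Ddx21 and Mybbp1a of the nucleolus at large, Polr1a, Polr1b, Ubtf and Rrn3 of RNA polymerase I, and Fbl, Nop56, Nop58, Gar1, Nhp2, Nop2 and Nat10 of rRNA modification. The others were Nol6, Rrp9, Wdr43, Wdr75, Heatr1, Imp3, Imp4, Mphosph10 and Rrp12 of the small subunit processome, Nob1, Tsr1, Bysl and Ltv1 of later 40S assembly, and Bop1, Pes1, Wdr12, Sbds, Nip7, Rrp1 and Rrp1b of 60S assembly. All 37 were on the array with a log2 intensity averaging 6 or more over the 6 arrays, so no member was lost to low signal.

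The arrays hold RNA of LKS+ cells, the lineage-negative, c-Kit-high, Sca-1-positive fraction of mouse marrow in which hematopoietic stem cells and multipotent progenitors lie. There were 3 arrays of wild-type (WT) mice and 3 of Apcmin mice, with the Min allele, a premature stop in Apc, whose product is a scaffold of the complex that degrades beta-catenin. The allele is in the germline, so every cell of the mouse carries it, and the labels used here do not state strain, age or sex. Each array was taken as 1 mouse. No label names separate animals, so p-values measure the spread between these samples. The log2 intensity of Apc averaged 7.72 ± 0.09 (SD, n = 3) over WT arrays and 7.80 ± 0.09 over Apcmin arrays (limma, adjusted p = 0.963). A stop codon need not change the mRNA level, so this value does not check the labels.

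A ribosome begins when RNA polymerase I transcribes the rRNA precursor from repeated genes in the nucleolus. Small nucleolar RNPs guide methylation and pseudouridylation of this precursor, a large particle called the small subunit processome folds and cuts its 18S part, and other factors build the 60S subunit around the 28S and 5.8S parts. Many of these factors are known targets of Myc, and Myc is a target of beta-catenin in the intestine. Stem cells of the marrow make protein slowly compared with the progenitors they give rise to. Loss of function in Sbds causes a marrow failure syndrome, and Npm1 is mutated in acute myeloid leukemia.

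Myc and its partner Max bind the E-box CACGTG, so the start regions of the members were searched for it. RefSeq windows of the assembly GRCm38.p6, each 300 bases long with 250 bases before and 50 from the start site on, were at hand for 31 of the 37 genes. The 6 members outside the table were Npm1, Fbl, Sbds, Nol6, Bop1 and Rrp12. The motif is its own reverse complement, so both strands are read at the same time. It was in a window of 8 of the 31 genes (25.8%), which were Rrn3, Imp4, Wdr43, Tsr1, Ltv1, Mybbp1a, Nop2 and Pes1. Among 27025 genes with a RefSeq window 8.09% had it, and of the 7143 whose log2 intensity on these arrays averaged 6 or more 12.6% did. By window the shares were 20.5% of 39 for the members and 7.15% of 32851 for all genes. A match describes the letters in the window and is not a bound site. The 6 of these genes with the brightest probe sets are shown, 5′ to 3′ along the gene's strand with CACGTG in capitals. The bases before the start site are given where the motif lies upstream, and a short stretch around it where it lies in the first transcribed bases.
Rrn3, chr16:13780449-13780698, plus strand: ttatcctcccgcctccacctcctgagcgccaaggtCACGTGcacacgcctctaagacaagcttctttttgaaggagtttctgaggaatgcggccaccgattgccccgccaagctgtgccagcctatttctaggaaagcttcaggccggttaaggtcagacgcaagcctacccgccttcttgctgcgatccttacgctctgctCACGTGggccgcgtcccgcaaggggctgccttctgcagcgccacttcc
Imp4, chr1:34439579-34439828, plus strand: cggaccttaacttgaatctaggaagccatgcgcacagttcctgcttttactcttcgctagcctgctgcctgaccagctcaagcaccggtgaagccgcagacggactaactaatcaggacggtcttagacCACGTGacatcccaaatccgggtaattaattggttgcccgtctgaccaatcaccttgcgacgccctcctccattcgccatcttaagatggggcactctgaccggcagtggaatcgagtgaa
Wdr43, chr17:71616220-71616249, plus strand: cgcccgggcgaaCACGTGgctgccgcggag
Tsr1, chr11:74898092-74898121, plus strand: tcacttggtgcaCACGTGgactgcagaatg
Ltv1, chr10:13193092-13193121, minus strand: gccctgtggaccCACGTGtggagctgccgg
Mybbp1a, chr11:72441355-72441376, plus strand: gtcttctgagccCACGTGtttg

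Rrn3, which brings RNA polymerase I to the rRNA promoter, had 2 copies, whose first bases were at -215 and -48 from the start site. The Imp4 copy began at -121. In the other 4 genes shown the motif lay just inside the transcript, at 18 in Wdr43, 25 in Tsr1, 29 in Ltv1 and 41 in Mybbp1a, counted from the start site as 1.

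As a group the nucleolar genes had slightly higher means in Apcmin, and no single gene passed the test. The Apcmin mean was above the WT mean in 28 of the 37 members and below it in 9, and the median difference was 0.10 on the log2 scale, a 1.07-fold difference in intensity. A further quantile normalization left 64.9% of members higher, where 75.7% were higher as deposited. For all 18193 genes the shares were 43.0% higher and 57.0% lower, and the median was -0.04. Over the 8658 genes with a mean of at least 6, the range in which every member lies, 56.3% were higher and 43.7% lower, with a median of 0.02. In limma 0 of the 37 had an adjusted p under 0.05, against 0.0% of 45037 probe sets, and the adjusted p of members ran from 0.954 to 0.999. At an unadjusted p under 0.05 there was 1 member, Wdr75, where 3.11% of all genes and 3.81% of probe sets were below that value. Of the 8658 genes with a mean of at least 6, 116 were. The 95% interval of the difference spanned 0 in the other 36, with a median half-width of 0.38, so differences of the size seen here could not be told from 0 with 3 arrays a group. In bulk samples a lower level in every cell and fewer cells that express a gene cannot be told apart.

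**Figure D1:**
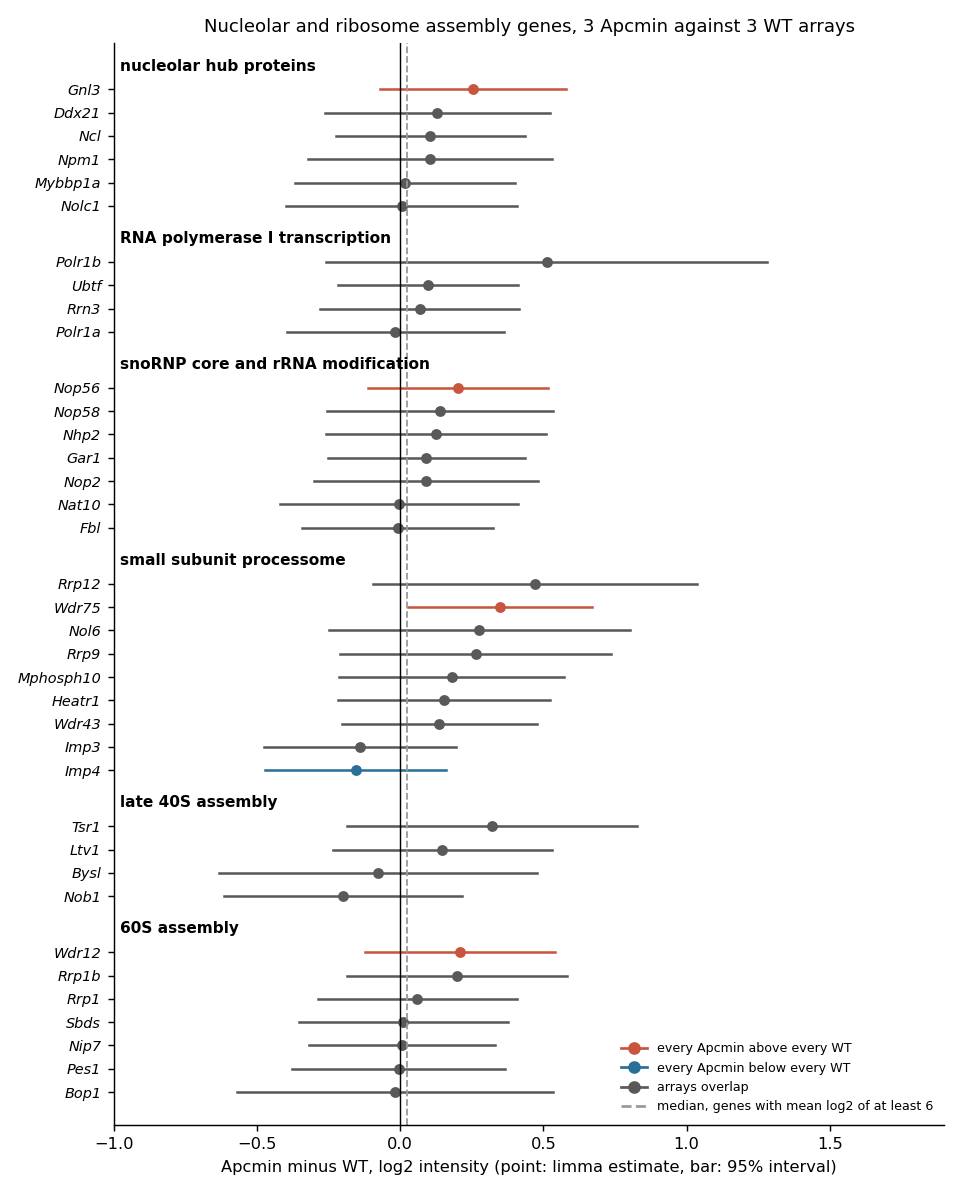
Differences between Apcmin and WT for the 37 genes by role, in log2 intensity, with the limma estimate as a point and its 95% interval as a bar (3 arrays a group). Most points lie right of 0, at a median of 0.10, and every interval but that of Wdr75 includes 0.

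The groups did not overlap in 5 members, 4 higher in Apcmin (Gnl3, Nop56, Wdr75 and Wdr12) and 1 lower (Imp4). That is 13.5% of members, where 7.73% of all genes and 7.63% of the genes with a mean of at least 6 had groups that did not overlap. Among the latter 4.16% lay wholly higher in Apcmin and 3.48% wholly lower. The members had 73 probe sets in all, of which 52 had a higher mean in Apcmin. Among the 60 with a mean of at least 6 there were 42, where 56.8% of all such probe sets, and 44.4% of probe sets at any level, had a higher mean. Within genes they often disagreed in sign, since of the 25 members with more than 1 probe set 14 had at least 1 that went the other way. Some of the opposing probe sets were dim, such as that of Wdr12, at a log2 mean of 1.12. In 6 members the probe set used ends in _s_at, Affymetrix's mark for probes that match more than 1 transcript, which can include transcripts of other genes.

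By the members' median deviation, the Apcmin arrays spread more widely than the genotypes differed, and the WT arrays less widely. On Apcmin replicate 3, 33 of the 37 genes lay above their own mean over the 6 arrays, and on Apcmin replicate 1 25 did. On Apcmin replicate 2 only 10 did, fewer than on any WT array, where the numbers were 14, 16 and 13 for replicates 1, 2 and 3. The median deviation from the gene's mean was 0.16 on Apcmin replicate 3, 0.09 on replicate 1 and -0.07 on replicate 2, with -0.06, -0.02 and -0.03 on the WT arrays. The lowest array of all was thus an Apcmin array. Genes with a mean of at least 6 as a whole had medians between -0.03 and 0.03 on the 6 arrays, and between 44.6% and 59.0% of them lay above their own mean. Without Apcmin replicate 2 the members' median difference was 0.17 and without Apcmin replicate 3 it was 0.06.

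**Figure D2:**
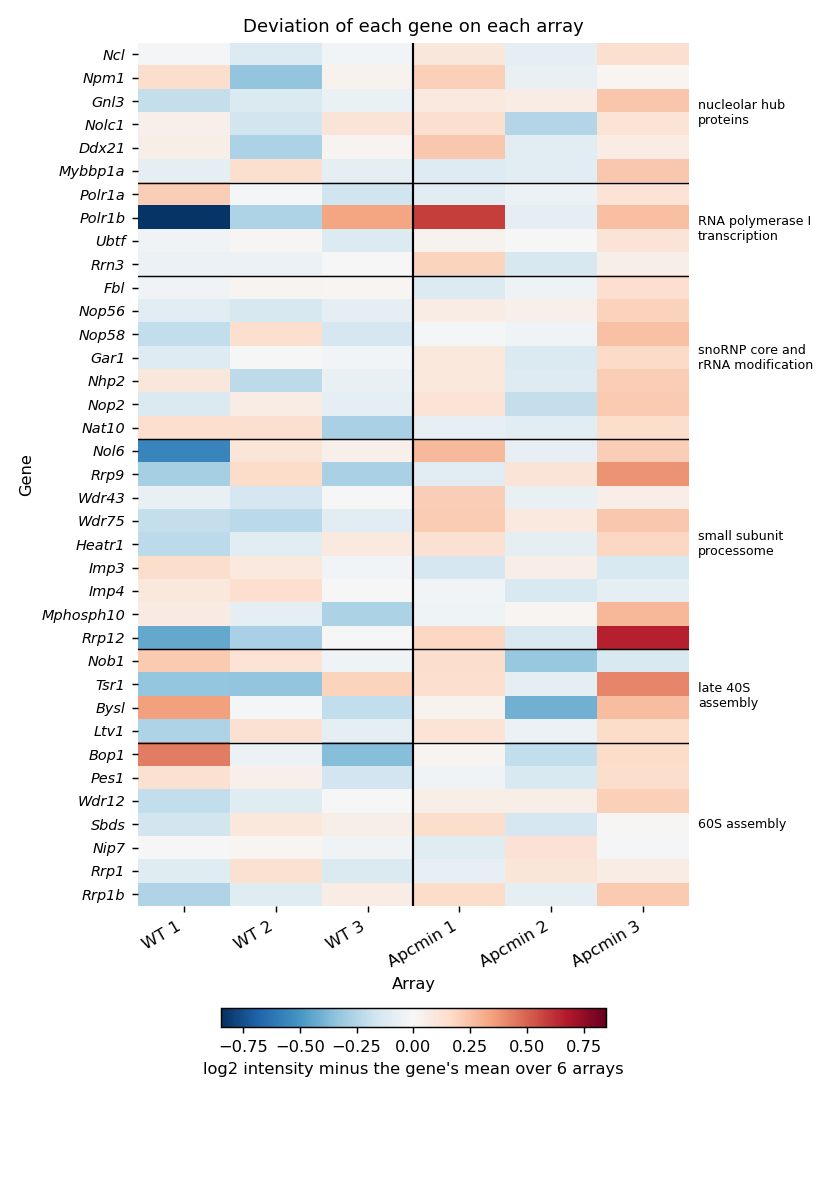
Log2 intensity of each of the 37 genes on each of the 6 arrays, as the deviation from the gene's mean over the arrays (red above, blue below), with genes ordered by role. The column of Apcmin replicate 3 is red in 33 of 37 genes and that of Apcmin replicate 2 in 10.

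Genes of other kinds differed between the same arrays. The 6 erythroid markers (Gata1, Klf1, Epor, Tfrc, Car1 and Car2) had median deviations of 0.34, -0.09 and -0.66 on WT replicates 1, 2 and 3, and 0.30, -0.60 and 0.52 on Apcmin replicates 1, 2 and 3. Both Apcmin arrays with high nucleolar genes were high in erythroid markers and the Apcmin array with low ones was low, while WT replicate 1 was high in erythroid markers and low in nucleolar genes. The summed linear intensity of these markers ran from 6460 to 8768 in WT and from 6619 to 9557 in Apcmin. Slc4a1 and Alas2, also erythroid genes, were listed with the mature markers below. Both were dim and had a lower mean in Apcmin, Slc4a1 at 4.46 in WT and 2.98 in Apcmin, and Alas2 at 2.15 and 1.99. The 21 proliferation genes measured had medians of -0.08, -0.07 and 0.004 in WT and 0.04, 0.002 and 0.03 in Apcmin. Of 18 markers of mature cells, 12 had a WT mean below 6, Cd3e at 3.07 and Ms4a1 at 2.02 among them. Granulocyte genes such as S100a9, at 12.03, were bright. The B-cell marker Cd79b was also above 6, at 8.06 in WT and 7.92 in Apcmin, while Cd79a was at 3.85 in WT. The summed linear intensity of the 18, in which bright genes weigh most, ran from 7057 to 10563 in WT and from 8028 to 8633 in Apcmin. Their Apcmin mean was the lower one in 15 of 18, with a median difference of -0.15, where 57.0% of all genes were lower. Of genes with a mean of at least 6, 43.7% were lower, so dimmer genes, as most of the 18 are, were lower more often. The 5 stromal and endothelial markers were all below 6. The sort's own Kit was at 9.79 ± 0.18 in WT and 9.87 ± 0.18 in Apcmin. Listed with it were Cd34, at 10.94 in both, Flt3, at 10.01 and 10.06, and Slamf1, at 6.13 and 5.91. These 4 had median deviations of -0.18, -0.02 and 0.18 on WT replicates 1, 2 and 3, and 0.04, 0.01 and -0.06 on the Apcmin ones. The part of these markers in the nucleolar genes' differences was not tested.

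**Figure D3:**
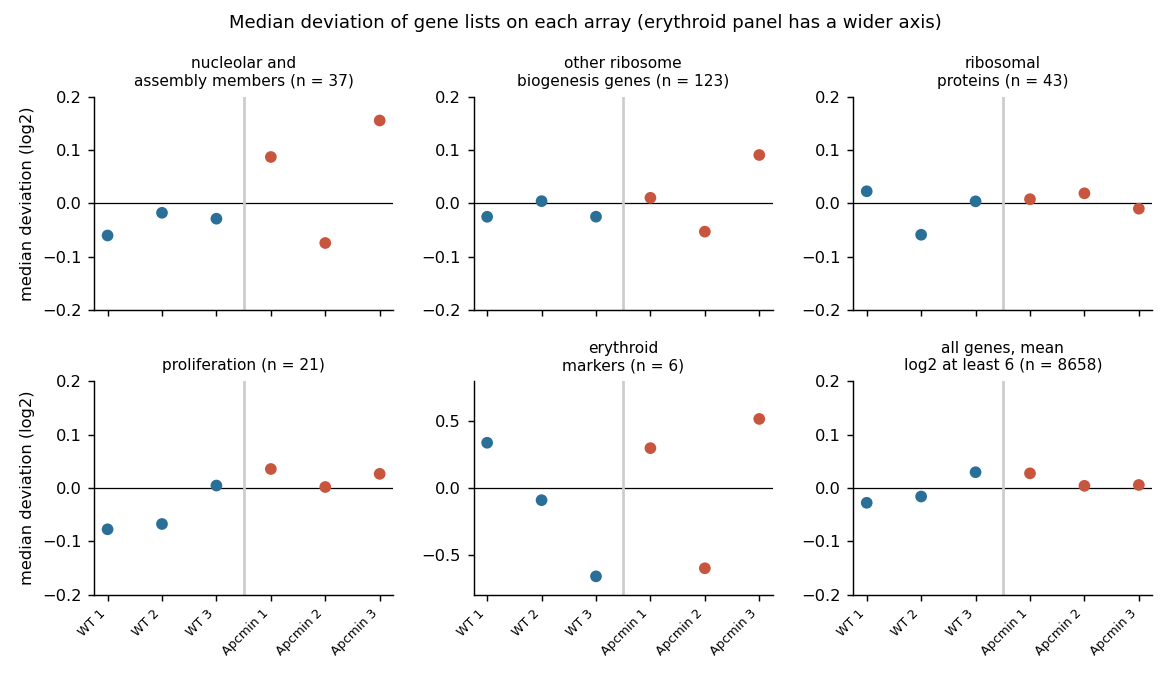
Median deviation of 6 gene lists from each gene's mean over the arrays, in log2 intensity, 1 point per array (WT blue, Apcmin red). The nucleolar genes span -0.07 to 0.16 over the 3 Apcmin arrays, and the erythroid markers, on a wider axis, -0.60 to 0.52.

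Among proteins found throughout the nucleolus, the Apcmin mean was the higher one in 6 of 6 members, and the median difference was 0.10. Gnl3 (nucleostemin), a GTPase of the nucleolus abundant in stem and dividing cells, was at 10.34, 10.42 and 10.49 on the WT arrays and at 10.63, 10.61 and 10.78 on the Apcmin arrays. Each Apcmin value was above each WT value. The difference was 0.25 (SE 0.14, limma adjusted p = 0.954), and the gene has no other probe set here. With any 1 array removed it was 0.20 to 0.29.

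Ncl (nucleolin), an RNA-binding protein of pre-rRNA, was at 11.17, 11.06 and 11.16 in WT and at 11.28, 11.10 and 11.32 in Apcmin. Apcmin replicate 2 lay among the WT values and the other Apcmin arrays above them. The difference was 0.10 with an interval from -0.22 to 0.43, and all 4 other Ncl probe sets also had a higher mean in Apcmin, with 0.28 for the mean of all 5. The difference of 0.10 became 0.06 without Apcmin replicate 3 and 0.17 without Apcmin replicate 2. Npm1 (nucleophosmin), a histone and ribosome chaperone, was at 11.98, 11.49 and 11.86 in WT and at 12.03, 11.77 and 11.85 in Apcmin. Its groups overlapped, and WT replicate 2 was the lowest array. Without that array the difference turned from 0.10 to -0.04. Ddx21, an RNA helicase that acts with RNA polymerase I, differed by 0.13. Mybbp1a differed by 0.02, and Nolc1, a chaperone of snoRNPs that shuttles between nucleolus and Cajal bodies, by 0.004, a difference with an interval from -0.40 to 0.41.

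Of the genes for transcription by RNA polymerase I, 3 of 4 had a higher mean in Apcmin. Polr1b, the second-largest subunit of the enzyme, had the widest spread. It was at 5.17, 5.74 and 6.34 in WT and at 6.60, 5.93 and 6.26 in Apcmin, and both lowest values were WT arrays. The difference of 0.51, the largest of the 37 with all 6 arrays, had an SE of 0.32 (limma adjusted p = 0.954). It was 0.22 without WT replicate 1, 0.81 without WT replicate 3 and 0.40 with 16 added before log2. Polr1b was also the dimmest of the 37, with a mean of 6.01 over the 6 arrays. Polr1a, the largest subunit, was at 7.59, 7.37 and 7.21 in WT and at 7.29, 7.33 and 7.49 in Apcmin. These values overlapped fully, with a difference of -0.02, and its 4 other probe sets were split between both directions. The dimmest of these had log2 means of 0.97 and 0.81.

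Ubtf, which binds and opens the rRNA genes, averaged 10.87 ± 0.06 over the WT arrays and 10.97 ± 0.06 over the Apcmin arrays, 0.10 higher. Its other, dimmer probe set went the other way. Rrn3, whose promoter holds the 2 E-boxes shown above, was at 9.74, 9.74 and 9.80 in WT and at 9.98, 9.66 and 9.84 in Apcmin. The lowest and the highest of these 6 values were both Apcmin arrays, and the difference was 0.07.

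In the snoRNP and modification genes, 5 of 7 had a higher mean in Apcmin. Nop56, a scaffold of box C/D snoRNPs, the particles that methylate rRNA, was at 10.58, 10.53 and 10.59 in WT and at 10.74, 10.72 and 10.86 in Apcmin. The groups did not overlap, and the other Nop56 probe set had the same sign. The difference was 0.20 (SE 0.13, limma adjusted p = 0.954). The paralog Nop58 was at 9.46, 9.82 and 9.54 in WT and at 9.67, 9.65 and 9.92 in Apcmin, with 1 WT array above 2 of the Apcmin arrays. Fbl (fibrillarin), the methyltransferase of the same particle, averaged 11.43 ± 0.03 over the WT arrays and 11.42 ± 0.14 over the Apcmin arrays, and the interval of its difference of -0.01 ran from -0.34 to 0.32.

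Gar1 and Nhp2, core proteins of the box H/ACA particles that pseudouridylate rRNA, differed by 0.09 and 0.13. Nop2, an rRNA cytosine methyltransferase, differed by 0.09. Nat10, which acetylates cytosine in 18S rRNA, was at 8.25, 8.24 and 7.83 in WT and at 8.03, 8.02 and 8.25 in Apcmin. Its means differed by -0.005, with overlapping groups. On Apcmin replicate 3 all 7 genes of this role were above their own mean, and on Apcmin replicate 2 only 1 was.

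Of the 9 small subunit processome genes 7 were higher by their mean in Apcmin, and the median difference was 0.18. Wdr75, a subunit that also supports pre-rRNA transcription, was at 8.28, 8.26 and 8.40 in WT and at 8.70, 8.57 and 8.72 in Apcmin. Its lowest Apcmin value was above its highest WT value. The difference was 0.35 with a standard error of 0.14, an interval from 0.03 to 0.67 and an unadjusted p of 0.038, and it did not pass over all probe sets (limma, adjusted p = 0.954). The other Wdr75 probe set, at a dim level, had the same sign, and leaving out each array gave 0.32 to 0.40.

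Rrp12, which takes part in the maturation and export of both subunits, had the second-largest difference of all members, 0.47, with a standard error of 0.24. It was at 6.41, 6.57 and 6.85 in WT and at 7.02, 6.72 and 7.50 in Apcmin. Apcmin replicate 2 fell below WT replicate 3, and Apcmin replicate 3 was far above the rest. Without Apcmin replicate 3 the difference was 0.26. Nol6 was at 7.45, 8.11 and 8.06 in WT and at 8.29, 7.94 and 8.22 in Apcmin, so that its difference of 0.28 came down to 0.06 without WT replicate 1. Rrp9, a protein of the U3 snoRNP, differed by 0.26, with overlapping groups.

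Heatr1, a transcription-linked processome subunit, was at 8.20, 8.34 and 8.51 in WT and at 8.55, 8.35 and 8.60 in Apcmin, and 1 of these Apcmin values lay inside the WT range. Its difference was 0.15, while its 2 dimmer probe sets differed by 0.86 and 0.28 and the mean of all 3 by 0.43. Without WT replicate 1 the difference was 0.08, and without WT replicate 3 it was 0.23. Mphosph10, Imp3 and Imp4 form a complex that brings the U3 snoRNA to the precursor, and they did not go one way. Mphosph10 differed by 0.18, Imp3 by -0.14 and Imp4 by -0.16. Imp4 was at 9.03, 9.09 and 8.94 in WT and at 8.92, 8.81 and 8.86 in Apcmin. Each Apcmin value was below each WT value, with a difference whose SE was 0.13 (limma adjusted p = 0.954). The 2 dimmer Imp4 probe sets went the other way, at 0.40 and 0.53, and the mean of all 3 differed by 0.26. Wdr43 differed by 0.14.

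Of the genes for the late steps of the 40S subunit, 2 of 4 had a higher mean in Apcmin. Tsr1, a factor that blocks early joining of the subunits, was at 8.79, 8.78 and 9.31 in WT and at 9.26, 9.04 and 9.53 in Apcmin. WT replicate 3 lay above 2 of the Apcmin arrays, and the difference was 0.32 with a standard error of 0.21. It was 0.19 without Apcmin replicate 3, 0.49 without WT replicate 3 and 0.18 with the mean of both probe sets, of which the dimmer differed by 0.04. Nob1, the endonuclease that makes the final cut of 18S rRNA, was at 8.14, 8.03 and 7.88 in WT and at 8.07, 7.60 and 7.79 in Apcmin. Its difference of -0.20 was the most negative of the 37 with all 6 arrays, with an interval from -0.61 to 0.21. It was -0.09 without Apcmin replicate 2, where Imp3 was at -0.21, and -0.33 without Apcmin replicate 1. Bysl, at 7.29 ± 0.28 in WT and 7.21 ± 0.34 in Apcmin, differed by -0.08, and Ltv1, a 40S export factor, by 0.15. The Ltv1 value was 0.05 without WT replicate 1 and 0.25 without WT replicate 2.

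The 60S assembly genes had a median difference of 0.01. Bop1, Pes1 and Wdr12 form the PeBoW complex, which is needed to process the 28S precursor. Wdr12 was at 9.56, 9.66 and 9.76 in WT and at 9.82, 9.82 and 9.97 in Apcmin. The groups did not overlap, and the difference was 0.21 (SE 0.14, limma adjusted p = 0.954). The other Wdr12 probe sets differed by 0.19, at a log2 mean of 8.83, and by -0.21, at a dim mean of 1.12. The mean of all 3, the dim one included, differed by 0.06. The means of its partners lay close together. Pes1 was at 8.87, 8.79 and 8.58 in WT and at 8.71, 8.61 and 8.89 in Apcmin, with a difference of -0.01. Bop1 was at 8.53, 8.05 and 7.74 in WT and at 8.12, 7.89 and 8.25 in Apcmin, with a difference of -0.02 and the widest WT spread of the complex, an SD of 0.40. The differences between these partners were not tested against each other.

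Sbds, which with a GTPase releases the factor that keeps the 60S subunit from joining, was at 7.15, 7.39 and 7.35 in WT and at 7.45, 7.16 and 7.31 in Apcmin. The means differed by 0.01 (95% interval -0.35 to 0.38). Rrp1 and its paralog Rrp1b differed by 0.06 and 0.20. Rrp1b was at 9.73, 9.88 and 10.05 in WT and at 10.14, 9.90 and 10.21 in Apcmin, where Apcmin replicate 2 was inside the WT range, and both dimmer Rrp1b probe sets had the opposite sign, which took the mean of all 3 to 0.03. Nip7 differed by 0.01.

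The members tended to move together from array to array. Over their 666 pairs the median Pearson correlation across the 6 arrays was 0.31, and 69.8% of pairs were positive. Over all pairs of the 8658 genes with a mean of at least 6 the median was 0.02 and 51.2% were positive. With each gene taken as its deviation from the genotype mean the members' median was 0.27, close to the value across all arrays. These correlations describe 6 shared arrays. The 7 snoRNP and modification genes were the most alike among the 6 roles, with a median of 0.46 and every one of their 21 pairs positive, and the 60S genes were the least, at -0.07. Gar1, Nop2 and Rrp12 followed the median of the remaining members most closely, with r = 0.96, 0.91 and 0.89. Imp3 went against it, at -0.88, as did Nip7, at -0.59.

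Imp3 was high where the others were low. It was at 9.94, 9.87 and 9.77 in WT and at 9.65, 9.85 and 9.66 in Apcmin. Its highest Apcmin value was on replicate 2, the Apcmin array with the lowest median of the other genes, and its groups overlapped there. The 43 cytoplasmic ribosomal protein genes measured had a median pairwise correlation of 0.15 and median deviations between -0.06 and 0.02 on the arrays, with a median difference of 0.01 between genotypes and 24 of 43 higher in Apcmin.

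Other genes of ribosome assembly, from a wider list of 128, had differences from -0.38 to 0.58. Among 123 measured, the Apcmin mean was above the WT mean in 78 and below it in 45. The median difference was 0.03, and 0 passed (limma, 1 with an unadjusted p under 0.05). In 6 every Apcmin array was above every WT array, where 2.97% of all genes and 4.16% of those with a mean of at least 6 did so. In 3 every Apcmin array was below, where 4.76% and 3.48% did. A mean of at least 6 was found in 119 of the 123. Their highest array was again Apcmin replicate 3, with 93 of the 123 above their own mean and a median deviation of 0.09, and their lowest Apcmin replicate 2, with 43 and -0.05. Without Apcmin replicate 3 the median difference was -0.003.

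The smallest p among the brighter genes of that list belonged to Noc4l, of the small subunit's nucleolar complex, at 9.33, 9.23 and 9.50 in WT and at 9.85, 9.64 and 9.71 in Apcmin. Its values did not overlap, with a difference of 0.38 (SE 0.15, limma adjusted p = 0.954). Ddx52, an RNA helicase, differed by 0.34. Lower in Apcmin were Taf1b, of the factor that selects the RNA polymerase I promoter, at 7.75 ± 0.05 in WT and 7.45 ± 0.07 in Apcmin, and Surf6, at 8.76 ± 0.18 and 8.44 ± 0.06. In each of the 4 the groups did not overlap, and none passed.

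Myc varied more within genotypes than between their means, and its difference did not pass. It was at 9.88, 10.45 and 10.51 in WT and at 10.18, 10.06 and 10.42 in Apcmin, so WT arrays were both the lowest and the highest. The difference was -0.06 with an interval from -0.58 to 0.45 (limma, adjusted p = 0.980). The range over the arrays was 0.64, and WT replicate 1 was the farthest from the rest.

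Across the 6 arrays 23 of the 37 members had a positive correlation with Myc, with a median r of 0.19. Over the genes with a mean of at least 6, 54.6% had a positive r, with a median of 0.07, and over all genes 46.7% did, with a median of -0.05. In limma with the Myc level as the term, 0 of 37 members had an adjusted p under 0.05, against 0.0% of 45036 probe sets, and 0 had an unadjusted p under 0.05, where 5.65% of probe sets did. By the exact permutation test over all 720 orders of the arrays, two-sided, 0 members had an unadjusted p under 0.05, where 5.24% of 18192 genes did. After adjustment over those genes the smallest p of any gene was 0.743. As deviations from the genotype means 24 members were positive, with a median of 0.27, where 45.7% of all genes and 54.8% of those with a mean of at least 6 were positive. No member reached an r of 0.8 in either direction, which 5.04% of all genes and 5.8% of the brighter ones did. Removing WT replicate 1, Apcmin replicate 3 or Apcmin replicate 2 took the members' median r to 0.07, 0.08 and 0.09, and removing WT replicate 2 or WT replicate 3 took it to 0.33 and 0.30.

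The highest r was that of Nol6, at 0.71 (exact permutation p = 0.079, adjusted p = 0.926), with Spearman's rho of 0.43 (exact permutation p = 0.419). Sbds followed at 0.67, with rho of 0.60 (exact permutation p = 0.171 and 0.242). Heatr1 and Ltv1 had r = 0.63 each, with rho of 0.37 each (exact permutation p of r 0.171 and 0.176, and of rho 0.497 in both). The most negative were Bop1 at -0.58, with rho of -0.60 (exact permutation p = 0.240 and 0.242) and Polr1a at -0.51, with rho of -0.54 (exact permutation p = 0.303 and 0.297). Npm1 was at -0.48 and Imp3 at -0.46, with rho of -0.31 each (exact permutation p of r 0.371 and 0.325, and of rho 0.564 in both). After adjustment over 18192 genes no member was below 0.926 for r by the exact permutation test, and for rho the smallest adjusted p of any gene was 1. WT replicate 1 had the lowest values of both Nol6, at 7.45, and Myc.

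Without the 2 arrays farthest from the median of Myc, WT replicate 1 and Apcmin replicate 2, the positive median was lost. The members' median r over the 4 arrays left was -0.36, that of Nol6 was -0.89, that of Sbds -0.77, that of Heatr1 -0.34 and that of Ltv1 -0.46. Bop1 was at -0.49, Polr1a at 0.01, Npm1 at -0.60 and Imp3 at 0.62. Over those 4 arrays 9 of the 37 members had a positive r, Fbl at 0.69 and Mybbp1a at 0.40 among them. Of 8657 genes with a mean of at least 6, 4023 had a positive r there, with a median of -0.07. Of all 18192 genes 9873 did, with a median of 0.08. The members' positive median r and the high r of Nol6, Sbds, Heatr1 and Ltv1 thus rested on the 2 arrays removed, which had the lowest median deviations of the nucleolar genes. With no array left out, the 8 genes with CACGTG in a window had a median r with Myc of 0.34, from -0.17 to 0.63. On the same arrays the 23 others with a window had one of 0.04, from -0.51 to 0.63. The ranges overlapped over most of their length. In the difference between genotypes the order was the other way, with a median of 0.08 for the 8 and 0.13 for the 23. Over the 4 arrays left, the r of the 8 was -0.92 in Rrn3, -0.80 in Wdr43, -0.46 in Ltv1 and -0.42 in Nop2. It was -0.11 in Tsr1, -0.10 in Pes1, 0.27 in Imp4 and 0.40 in Mybbp1a. The medians of the 8 and the 23 were not compared over those 4 arrays, so the order seen with all 6 arrays may not hold there.

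**Figure D4:**
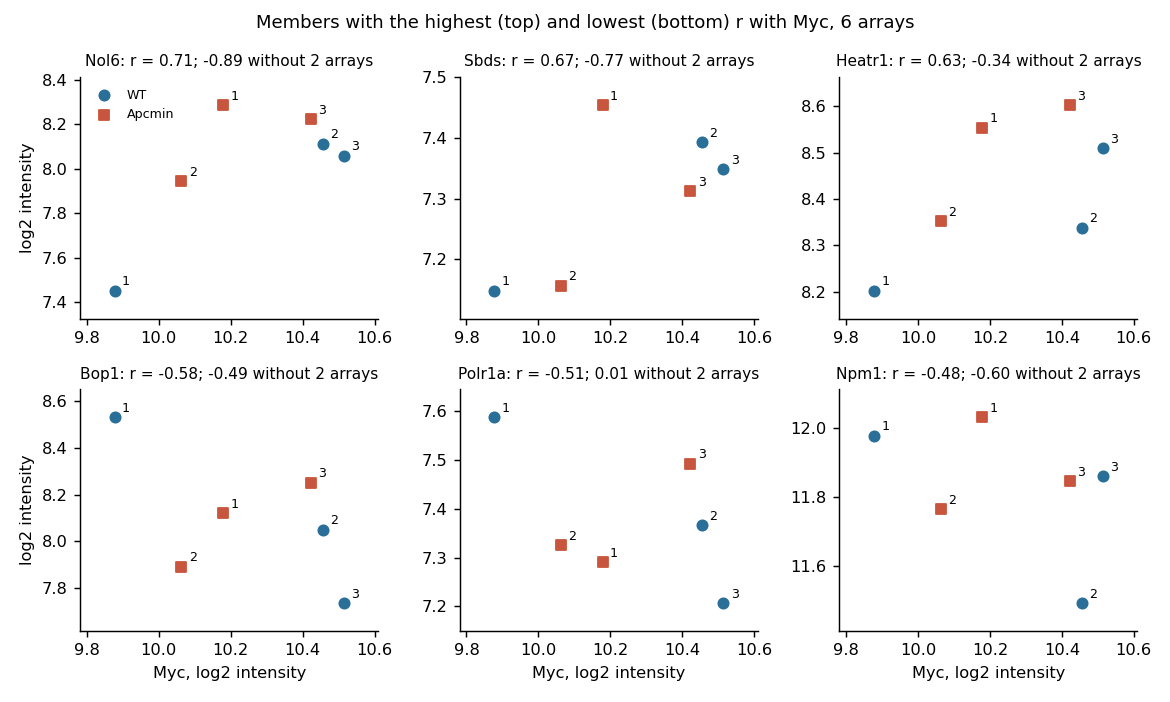
Log2 intensity of the 3 members with the highest r with Myc (top) and the 3 with the lowest (bottom) against the log2 intensity of Myc, 1 point per array (WT circles, Apcmin squares, replicate numbers beside them). In Nol6, Sbds and Heatr1 the slope rests on the arrays with the lowest Myc, WT replicate 1 and Apcmin replicate 2.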

How the data were processed

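RNA of sorted LKS+ cells was amplified linearly and hybridized to Affymetrix mouse arrays, per the labels. The table the authors deposited holds an intensity for each probe set on each array. The submitters' processing notes name RMA, with no version or background step in the sources used here. The values were linear although RMA usually gives log2, so log2 was taken with no pseudocount. Of 45101 probe sets 64 controls were left out. Exactly 1 symbol was listed for 34945, and the brightest of these by the mean over 6 arrays stood for a gene. Apcmin was compared with WT in limma 3.58.1 (lmFit and eBayes, two-sided, Benjamini-Hochberg over 45037 probe sets, threshold 0.05), and Myc was fitted as a continuous term in the same way. The number of arrays limits the precision. Each step was tested on simulated data. Members and lists were chosen with earlier results of these data known. Named were members whose groups did not overlap, the 5 largest differences in each direction, the 4 highest and 4 lowest r with Myc, a fixed set over all roles, Myc and Apc, and in the wider list the 2 smallest p in each direction at a mean of at least 6. Other members are given by their difference, and Nop58, Ddx21, Mybbp1a, Gar1, Nhp2, Nop2, Rrp9, Wdr43, Mphosph10 and Nip7 were added so that all members are accounted for.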

Additional observations from a re-analysis of the deposited data

How the results depend on the processing

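No probe set, and so no member, had an adjusted p under 0.05 in limma under any alternative run. For genotype these were a floor at log2 4, a filter at a mean of 6, averaging every probe set of a gene, a further quantile normalization, a mean-variance trend, array weights, 16 added before log2, the replicate block and leaving out each array. For Myc the trend, array weights and block were not run, and genotype as a further term was. With the replicate block the median difference of members was 0.10 with 75.7% higher, the same as without it. Same-numbered arrays did not deviate together (r = 0.05, -0.05 and -0.25), where arrays with different numbers had r from -0.16 to 0.21. With 3 arrays a group this cannot show whether the numbers pair the arrays. Quantile normalization gave a median of 0.08 with 64.9% of members higher. Leaving out each array gave medians from 0.06 to 0.17 and 70.3% to 89.2% higher, and medians of r with Myc from 0.07 to 0.33. The median r was -0.36 without the 2 arrays farthest from the Myc median. Of 27 named members 14 kept their sign in every alternative and 13 did not. With the mean of all probe sets the sign turned for Ubtf (-0.068), Fbl (0.027), Imp4 (0.26), Bysl (0.0055), Bop1 (0.18), Pes1 (0.24) and Rrp1 (-0.0036), with quantile normalization for Nolc1 (-0.021) and Sbds (-0.023), and with array weights for Sbds (-0.013). Leaving out an array turned the sign within the ranges -0.11 to 0.083 for Polr1a, -0.14 to 0.065 for Nat10, -0.23 to 0.11 for Bysl, -0.20 to 0.19 for Bop1, -0.088 to 0.057 for Pes1, -0.063 to 0.087 for Sbds, -0.039 to 0.20 for Npm1, -0.072 to 0.13 for Nolc1, -0.085 to 0.046 for Fbl and -0.011 to 0.15 for Rrn3. The other probe set of Bop1 had a dim log2 mean of 2.79 over the 6 arrays, and that of Pes1 one of 3.58. Where a value moved, the cause was not tested. Myc has 1 probe set with 1 symbol, so its mean over probe sets gave no other value. No scanner file was used here, so dim levels have no detection call.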
